A study of Mus musculus with 4 samples.

Results

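Immunoglobulin variable segments are the gene pieces that, after rearrangement, encode the antigen-binding end of an antibody chain. Every symbol beginning with Ighv (heavy chain), Igkv (kappa light chain) or Iglv (lambda light chain) was taken from the gene lists of 4 single-cell libraries, which gave 127 of the 16500 symbols listed in any library. They were 63 Ighv, 61 Igkv and 3 Iglv symbols. The mouse annotation used here holds 183, 160 and 3 such symbols, all 127 matched it, and 4 of the 127 are annotated as pseudogenes.

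The libraries were droplet libraries of the 10x Genomics 3′ type, 1 each from stomach, small intestine, cecum and colon. Each was made from live CD45.2+ leukocytes sorted from the epithelial layer of uninfected C57BL/6 mice, and the labels give neither the age nor the number of the animals. The extraction protocol names only colons in each of the 4 records; tissues follow the tissue label. With 1 library per tissue, tissue, animal, library and sequencing run cannot be told apart, no test was possible, and all ranges in parentheses are exact 95% intervals that cover counting error only.

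A B cell joins 1 heavy segment to D and J pieces and 1 light segment to a J piece, and normally goes on to express a single heavy and a single light chain. The rearranged segment is transcribed together with a constant region, such as Igha for IgA, Ighm for IgM, Igkc for the kappa chain and the Iglc genes for lambda chains. Plasma cells secrete antibody and hold very large amounts of these transcripts, and in the gut most of them make IgA, which is joined into dimers by the J chain (Jchain). T cells do not normally make antibody chains.

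The number of segment symbols listed differed widely between the files. The small intestine file listed 124 (60 Ighv, 61 Igkv, 3 Iglv), the cecum file 22 (12, 7 and 3), the colon file 22 (15, 5 and 2) and the stomach file 9 (4, 3 and 2). Of the 127 symbols, 92 were listed for small intestine alone, and 3 were listed elsewhere but not there. Iglv1, Iglv3, Igkv1-110, Igkv1-117, Ighv6-3, Ighv6-4 and Ighv1-82 were the 7 listed in all 4 files. Each listed segment had a UMI (a unique molecular identifier, which counts 1 captured RNA molecule) in at least 3 cells in stomach, cecum and colon, and in at least 1 cell in small intestine. A segment that a file did not list could therefore still have been present in a few cells, and is not counted for that library.

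Many segments closely resemble each other, and 5 pairs named in the results are shown here over 90 bases near the 3′ end of their annotated transcripts (GENCODE M21, GRCm38), read 5′ to 3′ on the coding strand. Capitals mark the bases at which the members of a pair differ.
Igkv10-96: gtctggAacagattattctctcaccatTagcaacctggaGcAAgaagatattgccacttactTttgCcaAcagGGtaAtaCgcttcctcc
Igkv10-94: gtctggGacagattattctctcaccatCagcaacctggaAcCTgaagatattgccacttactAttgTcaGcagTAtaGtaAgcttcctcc
Igkv1-110: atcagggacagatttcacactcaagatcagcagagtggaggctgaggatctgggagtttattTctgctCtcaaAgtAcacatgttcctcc
Igkv1-117: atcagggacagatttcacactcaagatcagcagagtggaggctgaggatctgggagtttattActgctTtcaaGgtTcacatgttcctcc
Ighv1-26: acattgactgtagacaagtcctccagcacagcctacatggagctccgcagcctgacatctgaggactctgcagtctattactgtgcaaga
Ighv1-34: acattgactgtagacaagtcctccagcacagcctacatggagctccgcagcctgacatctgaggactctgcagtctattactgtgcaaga
Iglv1: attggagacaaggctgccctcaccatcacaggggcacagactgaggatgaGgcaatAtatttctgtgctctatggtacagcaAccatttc
Iglv2: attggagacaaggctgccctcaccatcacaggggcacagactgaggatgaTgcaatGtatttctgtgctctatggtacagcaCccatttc
Ighv6-3: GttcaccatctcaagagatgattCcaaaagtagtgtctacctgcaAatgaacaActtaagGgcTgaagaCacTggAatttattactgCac
Ighv6-4: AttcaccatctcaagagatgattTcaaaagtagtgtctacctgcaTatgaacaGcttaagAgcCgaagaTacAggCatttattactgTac

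These stretches lie in the variable exons. On GRCm38, the kappa stretches are chr6:68631963-68632052 (minus strand) for Igkv10-96, chr6:68704508-68704597 (minus) for Igkv10-94, chr6:68271178-68271267 (plus) for Igkv1-110 and chr6:68121738-68121827 (plus) for Igkv1-117. The heavy stretches, all on the minus strand, are chr12:114788372-114788461 for Ighv1-26, chr12:114851190-114851279 for Ighv1-34, chr12:114391715-114391804 for Ighv6-3 and chr12:114406478-114406567 for Ighv6-4. The lambda stretches, also on the minus strand, are chr16:19085017-19085106 for Iglv1 and chr16:19260401-19260490 for Iglv2. Over these 90 bases the Igkv10 pair differs at 12 positions, the Ighv6 pair at 10, the Igkv1 pair at 4 and the Iglv pair at 3. Ighv1-26 and Ighv1-34 do not differ there at all. Counts of such close copies are uncertain, because how the authors' counting treated reads that fit more than 1 of them is not given in the sources used here.

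Cells were sorted into classes by transcripts other than the segments. Plasma cells held at least 10 Jchain UMIs, and small intestine had 224 of them, cecum 26, stomach 4 and colon 3. B cells held at least 2 UMIs of Cd79a and Ms4a1 together and fewer than 10 of Jchain, and the count was 571 for cecum, 205 for colon, 104 for stomach and 76 for small intestine. Cd3-positive cells, which held a UMI of Cd3d, Cd3e or Cd3g and fell in neither class, numbered 3461 (cecum), 3397 (colon), 2505 (small intestine) and 355 (stomach). The remaining cells numbered 186, 156, 366 and 2734 in that order. Median depth was 10228 to 13446 UMIs in plasma cells, 1259 to 3214 in B cells and 1754 to 3008 in Cd3-positive cells. Total depth per library was 8568438 to 12988676 UMIs. No doublet caller was run. A Cd3 UMI was also held by 47 of the 224 plasma cells of small intestine and 6 of the 26 of cecum. Among B cells, 33 of 76 in small intestine and 14 of 104 in stomach held a Cd3 UMI. In cecum 67 of 571 B cells did, and in colon 30 of 205. Over all pairs of libraries 23 cell barcodes were shared, 1 of them a plasma cell.

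The plasma cell class carried its markers in small intestine, and in cecum it was mixed. In small intestine, Mzb1 (a chaperone of antibody assembly) was found in 99.1% of plasma cells and Tnfrsf17 (the plasma cell survival receptor BCMA) in 82.1%, while Ms4a1 (the B cell marker CD20) was found in 4.02%. All 10 plasma cell markers were detected there, the least frequent in 33.9% of cells. Jchain is among these 10 and was present in all cells by the rule that defined the class. Mzb1 was also found in 68.4% of small intestine B cells. In cecum Ms4a1 was found in 65.4% of the plasma cell class, Tnfrsf17 in 15.4% and Sdc1 in 19.2%. Sdc1 was found in 42.0% of the small intestine class. Other plasma cell markers were frequent in the cecum class, with Mzb1 in 100%, Xbp1 in 84.6% and Derl3 in 50%. Of the 26 cecum cells, 12 held fewer than 50 Jchain UMIs, all 12 of these had at least 2 Ms4a1 UMIs and at most 200 Igkc UMIs, and together they held 3 segment UMIs. The other 14 held 282 segment UMIs in 13 cells. In small intestine 9 of 224 cells lay under 50 Jchain UMIs, and they held 18 of the 17127 segment UMIs.

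Segment RNA was concentrated in plasma cells. All segments together made up 57.9 (57.0–58.7) of every 10000 UMIs in plasma cells of small intestine, 40.5 (35.4–46.0) for stomach, 36.4 (30.6–42.9) for colon and 10.1 (8.95–11.3) for cecum. In B cells the same quantity was 1.12 (0.753–1.59) in small intestine, 0.713 (0.452–1.07) in stomach, 1.36 (1.05–1.72) in colon and 1.01 (0.814–1.23) in cecum. The B cell intervals overlapped between all 4 libraries, and each lay below the plasma cell interval of its own library. Each library was summed over the segments listed for it, so values of different libraries cover different sets of segments.

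**Figure D1:**
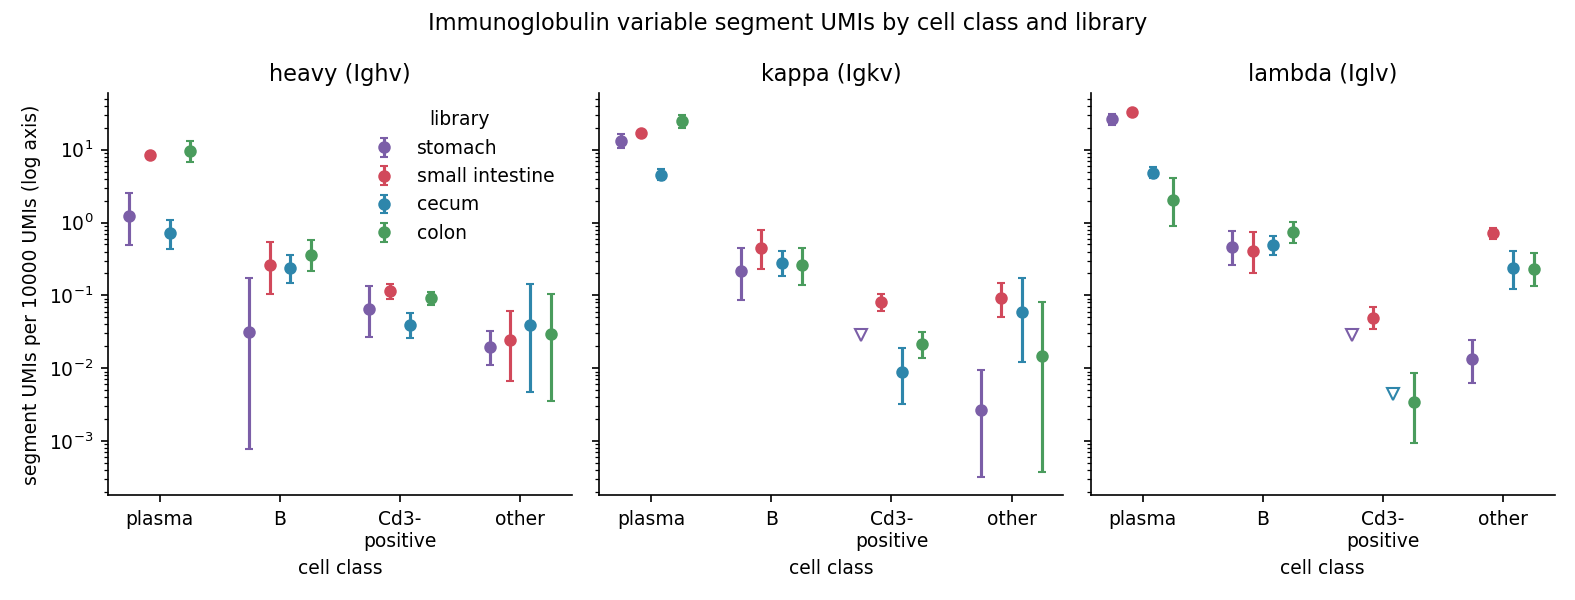
Segment UMIs per 10000 UMIs (log axis) in each cell class, for heavy, kappa and lambda segments. Circles are 1 library each with exact 95% Poisson intervals, and open triangles stand for a count of 0 at the upper limit of 3 counts; plasma cells lie above B cells in each library and chain.

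Most plasma cells of small intestine held mainly 1 heavy segment. The median plasma cell there held 8 heavy segment UMIs, the highest 132, and 194 of 224 cells held at least 1. Of the 150 cells with at least 5, a single segment made up 80% or more of the heavy segment UMIs in 101 (67.3%, 59.2–74.8). The median leading segment held 87.5% of the heavy segment UMIs of its cell, the lowest 37.5%, and in 47 cells no second heavy segment was seen. The 150 cells were led by 41 different heavy segments, none of which led more than 15.

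Ighv1-34 led the most cells, 15 of 150 (10.0%, 5.71–16.0), with 4 to 11 UMIs each. It was followed by Ighv1-64 with 11 cells (6 to 39 UMIs), Ighv6-3 with 8 (5 to 32 UMIs), and Ighv1-76 and Ighv1-81 with 7 each. Ighv1-34 was also the least dominant of these, with a median of 53.8% of the heavy segment UMIs of the cells it led, against 88.9% for Ighv1-64, 95% for Ighv1-76, 75% for Ighv1-81 and 100% for Ighv6-3. Its second segment was most often Ighv1-26, which is identical to it in the 90 bases shown above. These intervals overlap, so the order of the leading heavy segments was not resolved at this number of cells. Over all heavy segments of the pooled plasma cells, the most abundant held 8.04% of the UMIs.

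Heavy segments are grouped by sequence into subgroups, the number before the dash. Of the 60 listed heavy segments, 59 were seen in these same plasma cells. The number listed is therefore no independent measure of expected use, and a match to it was partly built in. Ighv1 led 97 of 150 cells (64.7%, 56.4–72.3), and 39 of the 60 listed heavy segments (65.0%) belong to it. Ighv6 led 10 cells, Ighv3 led 9, Ighv2 and Ighv9 led 8 each, and the 4 other subgroups led 4 to 6 each. The locus was also divided into 3 stretches of equal length. Segments of the stretch nearest to the J segments led 33 cells (22.0%, 15.7–29.5), those of the middle stretch 67 (44.7%, 36.6–53.0) and those of the farthest stretch 50 (33.3%, 25.9–41.5). Of the listed heavy segments, 13, 26 and 21 lie in these stretches, and of the annotated ones 67, 71 and 45.

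Kappa segments behaved alike once they were counted without the lambda segments. Of 176 plasma cells of small intestine with at least 5 Igkv UMIs, 1 segment held 80% or more in 112 (63.6%, 56.1–70.7), and the median leading share was 86.4%. In 36 cells no second kappa segment was seen. The cells were led by 45 different Igkv segments. Igkv10-96 led 24 cells (13.6%, 8.94–19.6) with 6 to 54 UMIs each, Igkv1-110 led 17 (9.66%, 5.73–15.0) with 8 to 54, Igkv17-121 and Igkv5-48 led 9 each and Igkv1-117 led 8. The interval of Igkv10-96 overlapped those of Igkv1-110, Igkv17-121 and Igkv5-48, and lay above that of Igkv1-117 (1.98–8.76%).

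Kappa subgroups are likewise given beside the number of their listed members. All 61 listed kappa segments were seen in these same plasma cells, so this number is no independent measure of expected use either. Igkv10, with 3 listed segments of 61 (4.92%), led 27 of 176 cells (15.3%, 10.4–21.5), and Igkv1, with 5 (8.20%), also led 27. Igkv4, the subgroup with most listed segments at 15 (24.6%), led 18 cells (10.2%, 6.18–15.7). Igkv6 led 24 cells with 9 listed segments, and Igkv17 led 15 with 2. By position, the 3 stretches of the kappa locus led 69, 52 and 55 cells from nearest to farthest from the J segments. They hold 28, 20 and 13 listed and 53, 60 and 47 annotated segments.

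**Figure D2:**
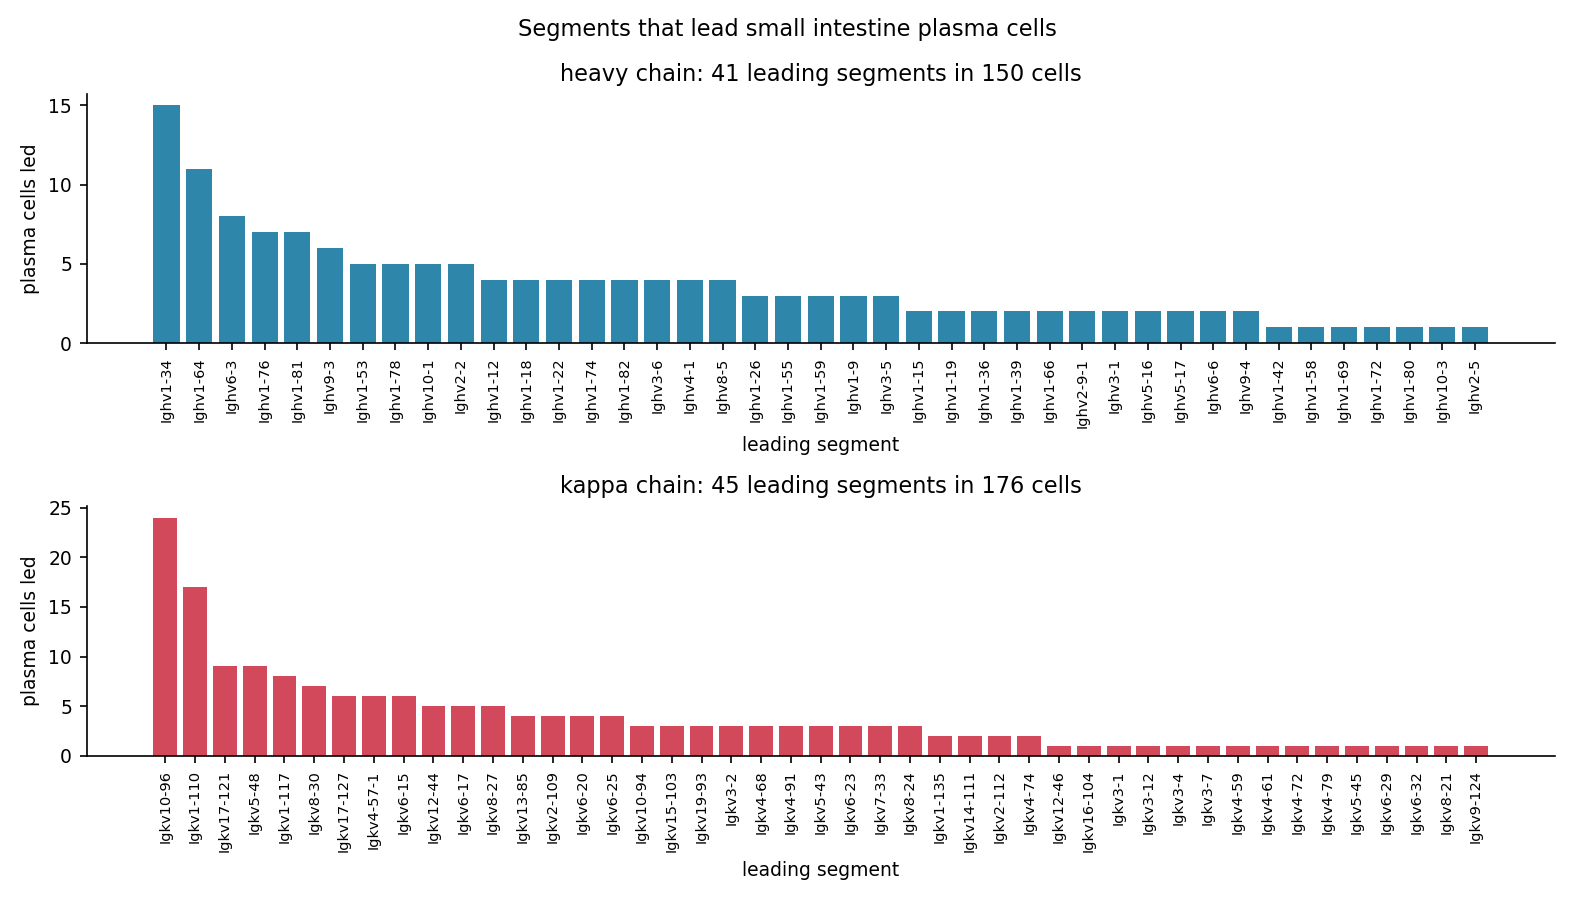
Number of small intestine plasma cells led by each segment (bars), for 150 cells with at least 5 heavy segment UMIs and 176 cells with at least 5 kappa segment UMIs. Ighv1-34 led 15 cells and Igkv10-96 led 24, with long tails of segments that led 1 to 5 cells each.

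Where a plasma cell held a second segment, it was mostly a near copy of the first. A second heavy segment with at least 2 UMIs was found in 57 of the 150 cells, and in 51 of these (89.5%, 78.5–96.0) it came from the subgroup of the leading one, whereas 43.0% of all pairs of listed heavy segments share a subgroup. The median identity of the leading and second heavy transcripts was 94.3%, against 66.4% over all 1770 pairs of listed heavy segments. A second kappa segment was found in 104 of 176 cells and shared the subgroup in 84 (80.8%, 71.9–87.8), against 10.3% of all 1830 pairs. Their median identity was 95.4%, against 65.4% over all pairs. Identity reached 90% in 64.9% of the heavy and 76.9% of the kappa cells, against 6.22% and 5.25% of all pairs.

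The pairs found in most cells were the following. Igkv1-110 and Igkv1-117 (97.5% identical) were the first and second kappa segments in 23 cells, with Igkv1-110 leading in 16, and the second held a median of 22.7% of the kappa UMIs. Igkv10-96 led Igkv10-94 (95.4% identical) in all 18 of their cells, the second at a median of 17.0%. Igkv17-121 and Igkv17-127 (97.5% identical) shared 9 cells. In the heavy chain, Ighv1-26 and Ighv1-34 (96.6% identical) shared 10 cells, of which Ighv1-34 led 8, and the second held a median of 37.2%.

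When symbols were joined by subgroup, 1 subgroup held 80% or more in 96.7% of cells for the heavy chain and 92.6% for kappa. Some cells held a second segment that was not a near copy. It made up 20% or more of the UMIs and was under 90% identical to the leading one in 16 of 150 cells for the heavy chain and 9 of 176 for kappa. A Cd3 UMI was present in 3 of the 16 and 1 of the 9. Whether these cells were doublets was not tested.

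Lambda segments did not follow this pattern, and Iglv1 was found in nearly every plasma cell of small intestine. It had 8884 UMIs in 213 of 224 cells and made up 60.7% of all light segment UMIs of the class. Counted with Iglv1, 1 light segment held 80% or more in 51 of 215 cells (23.7%, 18.2–30.0), with a median leading share of 63.5%, and Iglv1 was the leading light segment in 158 of them. In B cells of the same library it had 1 UMI, and in Cd3-positive cells 12 UMIs in 12 of 2505 cells. Per 10000 UMIs this is 30.0 (29.4–30.6) in plasma cells, 0.0372 (0.000942–0.207) in B cells and 0.0175 (0.00903–0.0305) in Cd3-positive cells.

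**Figure D3:**
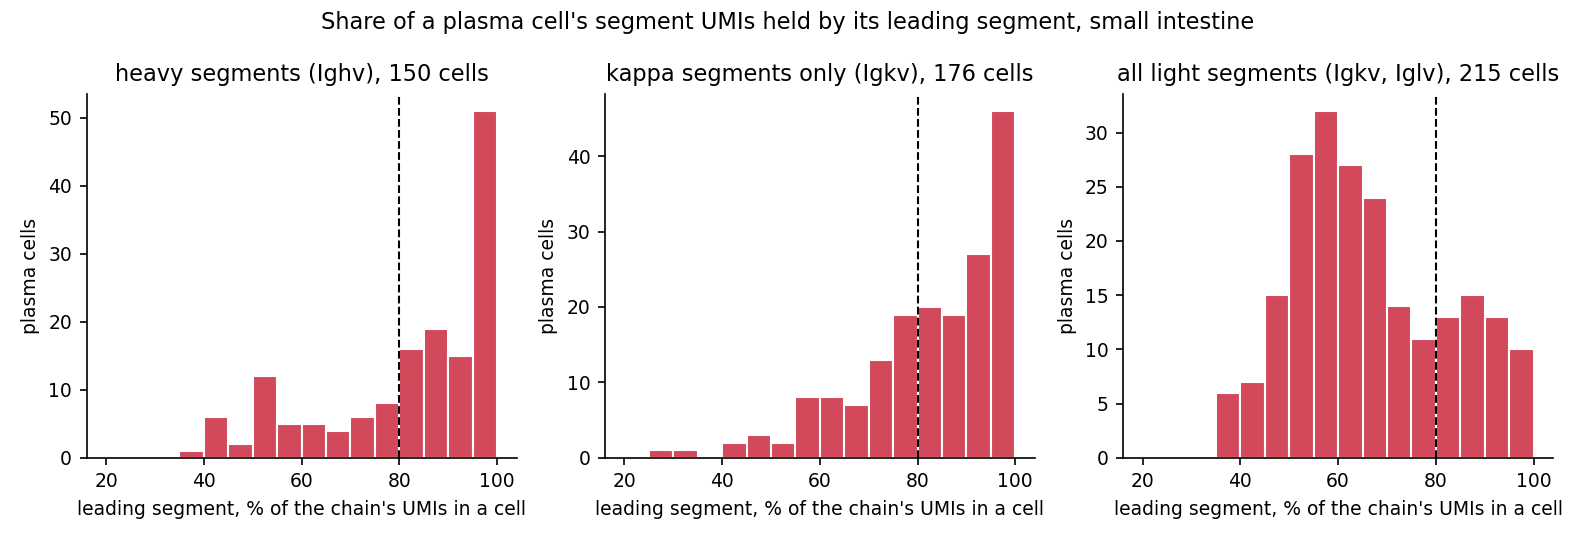
Share of the segment UMIs of a chain held by the leading segment in each small intestine plasma cell with at least 5 UMIs of that chain; the dashed line marks 80%. Most cells lie right of the line for heavy (101 of 150) and kappa segments (112 of 176), and most lie left of it once Iglv1 and the other Iglv segments are counted (51 of 215 to the right).

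Iglv1 was not limited to cells that made a lambda chain. Cells were called kappa when Igkc held at least 90% of the UMIs of Igkc and the Iglc genes, and lambda when the Iglc genes did, which gave 196 and 21 cells. A further 6 cells were mixed and 1 had fewer than 50 such UMIs. Among the kappa cells 189 held Iglv1, with a lowest value of 0, a median of 25 and a highest of 263 UMIs. All 21 lambda cells held it, with 1, 42 and 172 UMIs in the same order, so the groups overlapped almost fully. Summed, Iglv1 made up 29.0 (28.4–29.6) of 10000 UMIs in kappa cells and 44.4 (41.9–47.1) in lambda cells. Iglv1 led the light segments in 137 of the kappa cells.

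The kappa segments separated the same cells sharply. Kappa cells held a median of 22 Igkv UMIs, and 6 of 196 held none. Lambda cells held 0 in 19 of 21 and at most 2 in the others. The constant regions defined the kinds of cell and so differ by construction, with median Iglc1 values of 9 UMIs in kappa cells and 5027 in lambda cells. Igkv UMIs per 1000 Igkc UMIs were 4.13 in kappa cells.

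Across the 224 cells, which share 1 library and differ in depth, the Spearman correlation of Igkv with Igkc UMIs was 0.79, and that of Iglv1 with Iglc1 was 0.01. Within the kinds of cell, Iglv1 with Iglc1 gave -0.11 over the 196 kappa cells and 0.50 over the 21 lambda cells. Igkv with Igkc gave 0.71 and 0.49 in the same order. Iglv1 gave 0.38 with Igkc and 0.41 with Igkv in kappa cells, and -0.16 and 0.12 in lambda cells. The lambda cell values that involve Igkv (0.49 and 0.12) carry little weight, since 19 of those 21 cells held 0 Igkv UMIs. Iglv1 with total UMIs gave 0.37 in kappa cells and 0.46 in lambda cells. These are descriptions over cells of a single library. What gave rise to Iglv1 UMIs in kappa cells was not tested.

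**Figure D4:**
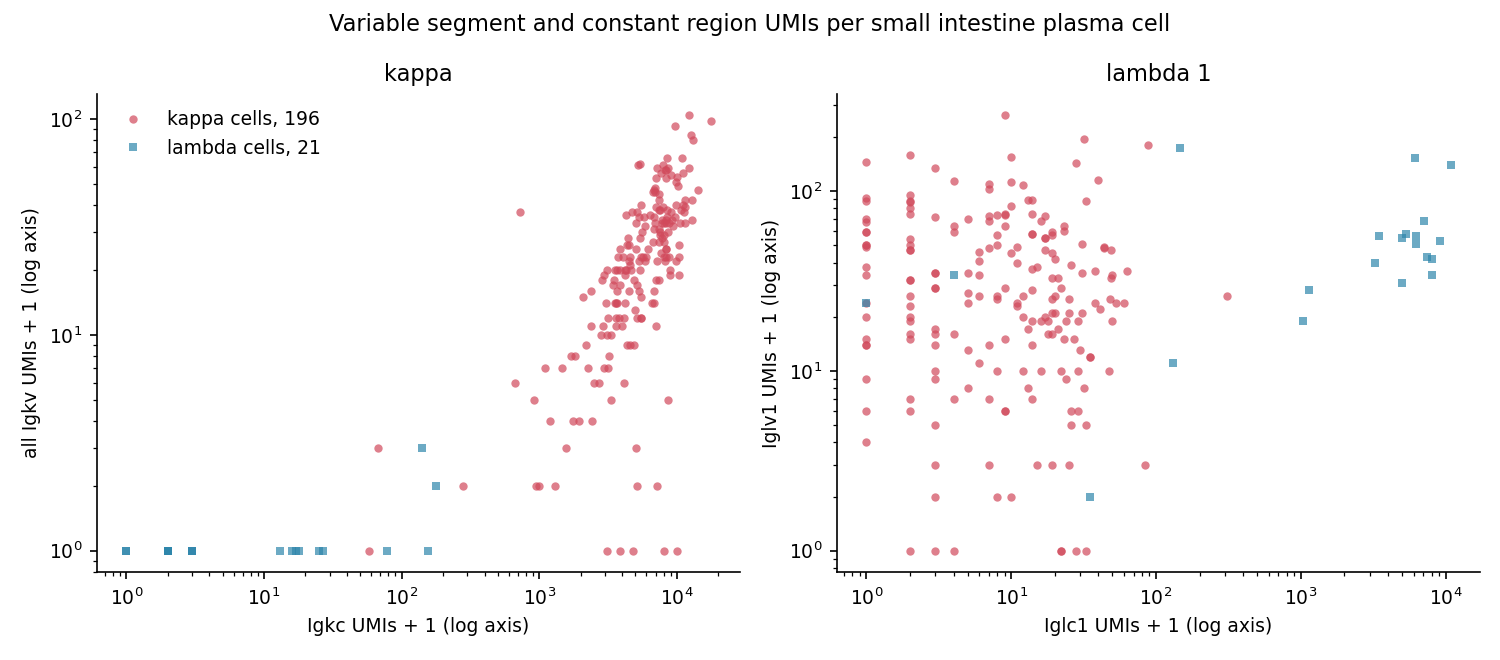
Variable segment UMIs against constant region UMIs in each small intestine plasma cell, both plus 1 on log axes, for 196 kappa cells (circles) and 21 lambda cells (squares). Igkv rises with Igkc and is near 0 in lambda cells, while the Iglv1 values of both kinds of cell overlap although their Iglc1 values lie mostly apart.

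The other lambda segments were scarcer. Iglv2, the near copy of Iglv1 (96.7% identical), had 254 UMIs in 108 plasma cells of small intestine, with a median of 0 in kappa cells and 1 in lambda cells. Among lambda cells, the 16 led by Iglc1 held a median of 1 and at most 23 Iglv2 UMIs, the 2 led by Iglc2 held 4 and 19, and the 3 led by Iglc3 held at most 1. Iglv3, 59.0% identical to Iglv1, had 494 UMIs in 151 plasma cells, with a median of 1 in both kinds of cell and a highest value of 82 UMIs in 1 lambda cell.

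Plasma cells of the other tissues were few and are given cell by cell or by count. In stomach Iglv1 led the listed light segments in all 4 cells, with 7, 53, 62 and 17 UMIs, although all 4 were kappa cells by their constant regions. Only 1 of them held more than 1 Igkv UMI, with 56 UMIs of Igkv1-110 and 19 of its near copy Igkv1-117. The stomach library listed only 3 Igkv segments and the colon library 5. A kappa segment outside those lists could not be seen, so the lead of Iglv1 in stomach holds among listed segments only. In colon, by contrast, the 3 plasma cells were also kappa cells but held 2, 1 and 1 UMIs of Iglv1. They were led by Igkv14-111 (13 and 34 UMIs) and Igkv1-117 (41 UMIs). The heavy segments were Ighv14-2 and Ighv1-82 with 19 UMIs in 1 cell each. No other heavy segment among the 15 listed for colon was seen beside them. With 4 and 3 cells in 1 library each, this difference in Iglv1 has no replicate check. By constant region, the stomach cells were 3 Ighm and 1 Igha, and the colon cells 1 each of Igha, Ighm and Ighg3.

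In cecum 9 of the 26 plasma cells had at least 5 light segment UMIs, and 4 of them were led by Iglv1 and 1 each by Igkv1-110, Igkv1-117, Igkv17-121, Igkv19-93 and Iglv2. Counting kappa segments only, 5 cells could be scored, 1 segment held over 80% in all 5, and Igkv19-93 led 3 of them. Heavy segments reached 5 UMIs in 2 cells, led by Ighv1-34 and Ighv6-3. Each was the only heavy segment of its cell among the 12 listed for cecum. The 16 kappa cells of cecum held a median of 2.5 Iglv1 UMIs. These 3 libraries listed 3 to 7 Igkv segments. For 1000 UMIs of Igkc in plasma cells the stomach library had 3.28 Igkv UMIs, cecum 2.08 and colon 6.36, against 4.14 for small intestine.

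Plasma cells of small intestine also differed from one another in how heavy and kappa segments were combined. The heavy and the kappa leading segment were both known in 129 cells, and these held 93 different combinations. Of these, 24 occurred in at least 2 cells and covered 60 cells, and none occurred in more than 4. Ighv1-34 with Igkv5-48, Ighv1-53 with Igkv6-20, Ighv1-82 with Igkv10-96 and Ighv2-2 with Igkv1-110 each occurred in 4. The heavy constant region was Igha in 216 of 224 cells and Ighm in 1, and the remaining 7 had too few constant region UMIs to be called. Junction sequences were not analysed here, so cells that share a combination are not known to share a clone.

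In B cells the segments were too sparse for dominance to be scored. No B cell of any library held 5 UMIs of heavy segments or 5 of light segments, so 0 of 571 cecum cells, 205 colon cells, 104 stomach cells and 76 small intestine cells could be scored, which allows shares of up to 0.525%, 1.46%, 2.88% and 3.95% of cells with that many. The highest values in 1 cell were 2 heavy, 2 Igkv and 3 Iglv UMIs. A segment UMI was found in 18 of 104 B cells of stomach (17.3%, 10.6–26.0), 22 of 76 of small intestine (28.9%, 19.1–40.5), 84 of 571 of cecum (14.7%, 11.9–17.9) and 52 of 205 of colon (25.4%, 19.6–31.9). After thinning to 1000 UMIs per cell the shares were 6.80% (2.78–13.5), 9.21% (3.78–18.1), 10.1% (7.54–13.1) and 10.2% (6.45–15.2), with overlapping intervals. Each share covers only the segments listed for its own library. One stomach cell and 84 cecum cells under 1000 UMIs were left out of the thinned shares. Cd3-positive cells, which should lack these transcripts, gave thinned shares of 0.282% (0.00715–1.56), 2.0% (1.48–2.62), 0.412% (0.225–0.690) and 1.45% (1.07–1.91) in the same order.

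Iglv3 was the most frequent segment in B cells of cecum and colon. It was found in 33 of 571 B cells of cecum (5.78%, 4.01–8.02) and 26 of 205 of colon (12.7%, 8.46–18.0). Iglv1 was found in 12 (2.10%, 1.09–3.64) and 5 (2.44%, 0.797–5.60). The cells with Iglv3 held medians of 13 and 32.5 Igkc UMIs. The Iglc genes held over 90% of the light constant region UMIs in 2 of the 33 and 1 of the 26, Igkc did in 6 and 2, and the others held both. Most B cells of either library passed neither limit. Over all B cells, the Iglc genes held over 90% in 20 of 571 in cecum and 10 of 205 in colon, and Igkc in 202 and 35.

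Only Iglv3 reached 20 UMIs over the B cells of cecum and colon together, among the 11 segments listed in both. It had 35.4 per 1000000 UMIs in cecum and 61.8 in colon, a ratio of 0.57 (0.340–0.966), and so was not called at 2-fold. Of all 7667 genes compared by the same rule, 4.24% were at least 2-fold higher in cecum and 3.34% at least 2-fold lower. Median depth was 1259 UMIs per B cell in cecum and 1996 in colon.

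Cd3-positive cells held few segment UMIs, and at most 3 in any cell. Their sum was 167 UMIs for small intestine, 136 for colon, 33 for cecum and 7 for stomach. This is 0.243 (0.208–0.283), 0.116 (0.0970–0.137), 0.0482 (0.0332–0.0677) and 0.0658 (0.0265–0.136) per 10000 UMIs. These values cover the 124, 22, 22 and 9 segments listed for each library in the same order. The sets differ, so part of any difference between libraries can lie in the listing. Unthinned, a segment UMI was found in 5.83%, 3.68%, 0.925% and 1.97% of these cells. The thinned shares given above keep small intestine and colon above cecum. Stomach had 7 heavy and 0 light segment UMIs, and a count of 0 there allows up to 0.0282 Igkv UMIs per 10000.

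The mix of segments in Cd3-positive cells differed from that of the plasma and B cells of the same library. In small intestine Ighv6-4 was the most abundant segment in Cd3-positive cells, with 28 UMIs in 26 cells (4.08 per 1000000 UMIs, 2.71–5.89), and had 2 UMIs in plasma and B cells together. Ighv6-3, of the same subgroup and 85.5% identical to it, had 15 UMIs against 106. Igkv1-110 had 27 UMIs in 27 cells against 523, and Iglv3 22 UMIs in 17 cells against 501. Iglv3 also had 114 UMIs in 65 of the 366 cells outside the named classes. Igkv1-117 had 12 UMIs against 393. Iglv1 had 12 against 8885, and Igkv10-96, which led the most plasma cells for kappa, had 0 against 549.

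As shares of all segment UMIs, Ighv6-4 made up 16.8% in Cd3-positive cells and 0.0117% in plasma and B cells of small intestine. Iglv1 made up 7.19% and 51.8%. Igkv1-110 made up 16.2% and 3.05%, Iglv3 13.2% and 2.92%, and Ighv6-3 8.98% and 0.618%. Igkc had 1676 UMIs in Cd3-positive cells, 1.38 per 1000 of those in plasma and B cells. Scaled by that ratio, Iglv1 would have had 12.3 UMIs in the Cd3-positive cells and Igkv10-96 0.759, while Ighv6-4 would have had 0.00277 and Igkv1-110 0.723.

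Ighv6-4 and Ighv6-3 also led in colon. Ighv6-4 had 29 UMIs in 29 Cd3-positive cells (2.46 per 1000000 UMIs, 1.65–3.54) and Ighv6-3 had 25 in 25 cells (2.12 per 1000000 UMIs, 1.38–3.14), and neither had a UMI in plasma or B cells of that library, where a count of 0 allows up to 3. Igkv1-110 followed with 16 UMIs, then Ighv1-69 with 9 and Ighv1-23 and Ighv1-82 with 8 each. In cecum the order was Ighv6-3 with 11 UMIs, Ighv6-4 with 7, Igkv1-110 with 4, Ighv1-82 with 3 and Ighv1-23 and Ighv1-69 with 2 each. In stomach Ighv1-82 had 5 UMIs in 5 cells, and Ighv6-3 and Ighv6-4 had 1 each.

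**Figure D5:**
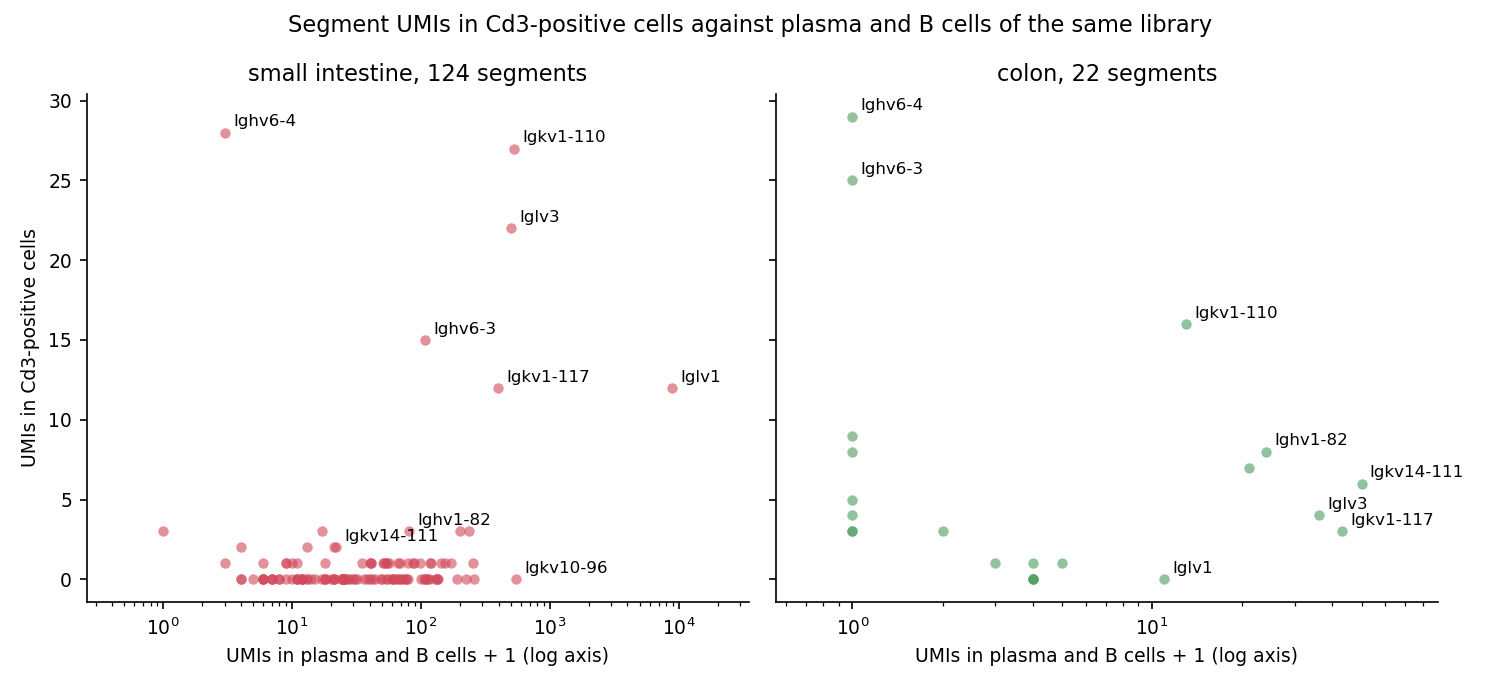
UMIs of each segment summed over Cd3-positive cells (vertical axis) against UMIs plus 1 summed over plasma and B cells of the same library (log axis), for the 124 segments listed in small intestine and the 22 in colon. Ighv6-4 lies high at the left in both, with 28 and 29 UMIs in Cd3-positive cells and 2 and 0 in plasma and B cells.

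The heavy and the kappa constant region also differed in this respect in each library, and most in colon and cecum. In colon, Cd3-positive cells held 991 Igha UMIs, 457.3 per 1000 of the 2167 in plasma and B cells, where 1 plasma cell had Igha as its heavy constant region. They held 78 Igkc UMIs, 3.97 per 1000. In cecum the values were 53.9 per 1000 for Igha and 3.71 for Igkc. In small intestine the values were 3.21 per 1000 for Igha and 1.38 for Igkc. In stomach they were 2.43 and 0.601, from 11 Igha and 16 Igkc UMIs. The source of the segment UMIs in Cd3-positive cells was not tested.

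Between libraries, segments could be compared in Cd3-positive cells for those with at least 20 UMIs over a pair of libraries and a place in both lists, and the 3 comparisons share the small intestine library. Against cecum, 4 of 21 shared segments qualified and 3 were at least 2-fold higher in small intestine, beside 8.8% of all 12104 genes compared; none was 2-fold lower, beside 6.04%. Ighv6-4 was 3.99-fold higher (1.70–10.8) and Igkv1-110 6.73-fold higher (2.34–26.5). Iglv3, at 0 UMIs in cecum, was 7.31-fold higher when set against 3 counts, and its exact interval starts at 5.46 with no upper limit. Ighv6-3 had a ratio of 1.36 (0.583–3.27).

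Against colon, 4 of 20 shared segments qualified and 2 were at least 2-fold higher in small intestine, beside 6.62% of 12655 genes; none was 2-fold lower, beside 5.38%. Iglv3 was 9.42-fold higher (3.20–37.6) and Igkv1-110 2.89-fold higher (1.5–5.74). The ratio of Ighv6-4 was 1.65 (0.948–2.88) and that of Ighv6-3 was 1.03 (0.504–2.03), so the counts of the Ighv6 pair did not separate these libraries. Against stomach, 3 of 9 shared segments qualified and Ighv6-4 was called higher, beside 15.9% of 11337 genes; none was 2-fold lower, beside 8.51%. That call rests on 28 against 1 UMI, with a ratio of 4.34 and an interval from 0.717 to 177.3. Segments that qualified only because small intestine was high had to differ, so these counts say nothing about the segments as a set.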

How the data were processed

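The deposited matrices of the 4 libraries held UMI counts per gene symbol and barcode, all of them integers, and were read as raw counts from these values. Per the submitters' processing notes the tools were Cell Ranger and Seurat 3.0.0, on the build GRCm38 (mm10); how genes were chosen for listing and how reads that fit several genes were counted is not given in the sources used here. Barcodes with at least 200 genes were kept, which removed 5 of 14378 (2 in stomach, 3 in colon). Segment positions, transcripts and pairwise identities came from GENCODE M21 (GRCm38) with Biopython 1.88. A leading segment was the one with most UMIs in a cell with at least 5 UMIs of that chain, and dominance meant 80% or more of them. Levels were summed over cells with exact Poisson intervals, ratios had conditional binomial and shares Clopper-Pearson intervals, all at 95% (SciPy 1.17.1). A ratio against 0 was computed with 3 counts in place of 0. Shares of cells were also given after thinning each cell to 1000 UMIs. The calculations were tested on simulated data. Doublets were not called.

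The segments named were, per class and library with at least 10 scored cells, the 5 that led most cells; in Cd3-positive cells, the 5 with most UMIs; those whose share of segment UMIs differed at least 4-fold from plasma and B cells, at most 5 per direction; and every Iglv segment. Segments outside that rule, those in the printed pairs and in classes of fewer cells, were named after their values were seen. The segments, classes and marker lists were chosen with earlier results of these data known.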

Additional observations from a re-analysis of the deposited data

How the results depend on the processing

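Thresholds moved the dominance shares of small intestine plasma cells, and the minimum of UMIs, the gene minimum, a Jchain minimum of 50 and leaving out cells with a Cd3 UMI did not move them beyond their intervals. With dominance at 50% the light share was 87.0% and the heavy share 94.0%, and at 95% they were 4.65% and 34.0%. Joined by subgroup the heavy share was 96.7%. With Igkv segments only, an alternative chosen after seeing the data, the light share was 63.6%, and 92.6% when joined by subgroup. In the libraries with few scored plasma cells, counts of dominated cells changed as follows. For light segments in stomach, with 3 cells, it was 0 with Igkv segments only and 1 when these were joined by subgroup. In cecum, with 4 cells, it was 7 at 2 or more UMIs, 8 at 50% dominance and 1 at 95%, and in colon, with 2 cells, 0 at 95%. For heavy segments it was 2 in stomach and 4 in cecum at 2 or more UMIs, and 0 in both at 10 or more. For B cells a minimum of 2 UMIs gave 4 dominated cells for light segments in stomach, 4 in colon, 3 in small intestine and 1 in cecum, and 1 for heavy segments in colon, in place of 0.

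Segment UMIs per 10000 in Cd3-positive cells, again in alternatives chosen after seeing the data, fell without Ighv6-3 and Ighv6-4 to 0.181 for small intestine, 0.0697 for colon and 0.0219 for cecum, and without Igkv1-110 to 0.204 in small intestine. The share of these cells with a segment UMI with no thinning was 5.83% for small intestine, 3.68% for colon, 1.97% for stomach and 0.925% for cecum, and 0.878% in small intestine and 0.619% in colon when thinned to 500 UMIs. With at least 50 UMIs per segment, 0 segments were called between small intestine and stomach, cecum or colon, since 0, 0 and 1 qualified. At 4-fold 1 was called against colon and 2 against cecum, where Ighv6-4 (3.99-fold) was lost. At 1.5-fold 3 were called against colon, and 1 between B cells of cecum and colon. Where a setting changed a value, the cause was not tested.

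No paired analysis was possible because each tissue had 1 library and no replicate number. No B cell reached 5 UMIs of a chain, so dominance could not be scored in them.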

Other observations

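Outside the classes of the report, Iglv3 was found in cells that held at least 2 UMIs of Siglech, a receptor of plasmacytoid dendritic cells; this comparison was chosen after its values were seen. In small intestine Iglv3 was present in 65 of 172 such cells (37.8%, 30.5–45.5; median depth 3534 UMIs) and in 0 of 190 other unclassed cells without Siglech (median depth 2710 UMIs), which allows a share of up to 1.58%. The lambda constant region Iglc3 was found in 143 (83.1%, 76.7–88.4) and 4 of the same cells, while Iglv1 was found in 1 of each and Igkv segments in 9 and 4. In colon Iglv3 was found in 9 of 17 cells with Siglech and 0 of 137 without, in cecum in 7 of 20 and 1 of 164, and in stomach in 4 of 6 and 1 of 2719. The highest Iglv3 value in 1 such cell was 10 UMIs in small intestine, 5 in colon and 3 in cecum and stomach.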
